A study of Mus musculus with 3 samples.

Results

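The genes described here encode the folding and degradation machinery of the endoplasmic reticulum, in RAW264.7 cells, a mouse macrophage line, exposed to fatty acids. They were chosen by name: a probe set was a member where its annotated gene symbol was 1 of 32 listed symbols, which cover 16 chaperones and folding enzymes, 10 degradation factors, 3 stress sensors or their transcription factors, and 3 factors of protein translocation and export. The list was drawn up with earlier results of these data known. Of the 32 symbols, 31 had a probe set of their own, out of 18820 such genes on the arrays. Pdia4 shares its probe set with a microRNA gene in the annotation and was not analysed here. The measured set therefore held 15 chaperones, 10 degradation factors, 3 sensors and 3 translocation and export factors, and 30 of the 31 passed a filter on low values, which kept genes whose mean over the arrays reached 4.14, the midpoint of the genes measured. Derl3 did not.

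The cultures received palmitate, elaidate or oleate, each at 500 µM for 6 hours, carried by albumin in a ratio of 2 fatty acids to 1 protein. Palmitate is a saturated fatty acid, elaidate is a trans monounsaturated one, and oleate is the cis isomer of elaidate; palmitate also has a shorter chain than the other two. Each fatty acid was represented by 1 expression array of total RNA, with values on the log2 scale, where a difference of 1 is 2-fold, and neither untreated cells nor cells given albumin alone were among the arrays used here. A difference below is thus a difference between a pair of arrays of 1 cell line, with no replicate check, no error and no p-value and with no untreated state to compare with.

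Proteins that enter the secretory pathway are threaded into the endoplasmic reticulum, folded there by chaperones and disulfide isomerases, and, when folding fails, moved back to the cytosol for destruction, a route called endoplasmic reticulum-associated degradation. The unfolded protein response adjusts this machinery through membrane sensors: IRE1, the product of Ern1, splices the messenger RNA of Xbp1, ATF6 is cut in the Golgi to free a transcription factor, and PERK, the product of Eif2ak3, slows translation and raises ATF4. Saturated fatty acids are known to engage these sensors in several cell types, and unsaturated ones less so.

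The cells carried the markers of their label. Of 10 macrophage markers 9 passed the filter, with Cd68 at a log2 value of 11.77 on each of the 3 arrays, while Mrc1 stood at 2.71. None of the 4 T cell markers and neither of the 2 measured B cell markers passed it. Col1a1 and Acta2 of the 4 fibroblast markers, Fabp4 of the 3 adipocyte markers and Alb of the 3 hepatocyte markers passed, all at log2 values of at most 6.04. Most macrophage markers were lower with palmitate: Mertk, a receptor for apoptotic cells, differed from oleate by -2.10, Lyz2 by -0.83 and Adgre1 by -0.66. Csf1r differed by -0.46, Itgam by -0.36, Fcgr1 by -0.23 and Spi1 by -0.10, while Cd68, Ptprc and Mrc1 were equal and none was higher. Of all genes past the filter, 36.8% were lower with palmitate than with oleate, 32.3% equal and 30.9% higher. Those at least 1.5-fold lower made up 4.73%. The median over the 10 macrophage markers was 10.18 on the palmitate array, 10.33 with elaidate and 10.36 with oleate. Their part in the differences below was not tested.

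Control of these genes by their promoters is well described, so the promoters are shown before the values. RefSeq promoters on build GRCm38.p6, from 250 bases before to 50 bases after the transcript start, were found by symbol for 27 of the 31 measured members. Atf6, Derl1, Hyou1 and Manf were not among them. The 6 stretches below are the 150 bases before the start, written 5′ to 3′ on the strand of the gene. They were picked as the 4 members that were furthest apart between palmitate and oleate among those with a promoter, and 2 chaperones, Hspa5 and Creld2, that were less than 1.5-fold apart. Capitals mark the fixed letters of any of 4 motifs searched on both strands: CCAAT and CCACG with 9 bases of any kind between them, the endoplasmic reticulum stress element or ERSE, bound by ATF6 with the factor NF-Y; ATTGG and CCACG with 1 base between them, its short form ERSE-II; TGACGTGG, the core of the unfolded protein response element or UPRE, bound by XBP1 and ATF6; and TGATGNAA, the core of the C/EBP-ATF response element, a site of ATF4. The stretches lie at chr12:44210069-44210218 on the minus strand for Dnajb9, chr8:94386279-94386428 on the plus strand for Herpud1, chr11:106487797-106487946 on the minus strand for Ern1, chr3:123267346-123267495 on the plus strand for Sec24d, chr2:34771940-34772089 on the plus strand for Hspa5 and chr15:88819496-88819645 on the plus strand for Creld2. The start given for Sec24d lies inside the annotated span of the gene.
Dnajb9: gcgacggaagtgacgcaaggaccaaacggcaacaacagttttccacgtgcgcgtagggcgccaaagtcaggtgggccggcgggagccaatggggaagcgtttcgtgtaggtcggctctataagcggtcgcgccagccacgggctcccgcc
Herpud1: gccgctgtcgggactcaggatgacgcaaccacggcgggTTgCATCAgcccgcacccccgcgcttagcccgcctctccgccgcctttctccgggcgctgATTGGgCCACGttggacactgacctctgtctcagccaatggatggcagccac
Ern1: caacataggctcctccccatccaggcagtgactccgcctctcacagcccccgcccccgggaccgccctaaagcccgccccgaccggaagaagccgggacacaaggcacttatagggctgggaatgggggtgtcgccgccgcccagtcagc
Sec24d: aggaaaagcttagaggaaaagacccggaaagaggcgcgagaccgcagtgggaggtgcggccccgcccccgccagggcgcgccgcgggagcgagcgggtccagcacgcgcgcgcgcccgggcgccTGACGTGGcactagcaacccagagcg
Hspa5: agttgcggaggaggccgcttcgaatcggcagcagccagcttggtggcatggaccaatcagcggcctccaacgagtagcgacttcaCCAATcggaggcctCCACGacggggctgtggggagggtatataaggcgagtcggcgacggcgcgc
Creld2: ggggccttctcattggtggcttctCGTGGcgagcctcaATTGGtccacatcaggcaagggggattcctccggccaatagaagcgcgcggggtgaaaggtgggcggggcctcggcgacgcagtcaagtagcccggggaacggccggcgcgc

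Among the 31 genes, palmitate and oleate differed most for a handful, and these were not the main chaperones. Dnajb9, Herpud1, Ern1 and Atf6 were at least 2-fold higher on the palmitate array than on the oleate array, and Sec24d and Derl1 at least 1.5-fold higher. That is 4 of 31 members past 2-fold, or 12.9%, where 1.65% of the 9410 genes past the filter were as much higher. Past 1.5-fold it was 6 of 31, or 19.4%, where the background was 4.57%. The list was drawn up with earlier results of these data known, so the member shares are not independent of the values. No member was 1.5-fold lower, where 4.73% of the genes past the filter were, and 1.22% of those 9410 genes were 2-fold lower. The median log2 difference over the 31 members was nonetheless only 0.03, beside a median of 0 over all genes past the filter. Between palmitate and elaidate, 3 members passed 2-fold, all higher with palmitate, where the background was 0.978%, and 4 passed 1.5-fold, where it was 3.18%; none was lower by either limit, against 0.871% and 4.43%. Between elaidate and oleate none passed 2-fold, where the background was 0.106%, and 1, higher with elaidate, passed 1.5-fold, where it was 0.723%; lower genes past 1.5-fold made up 0.0638% and included no member. The comparisons share arrays and are not independent of each other.

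**Figure D1:**
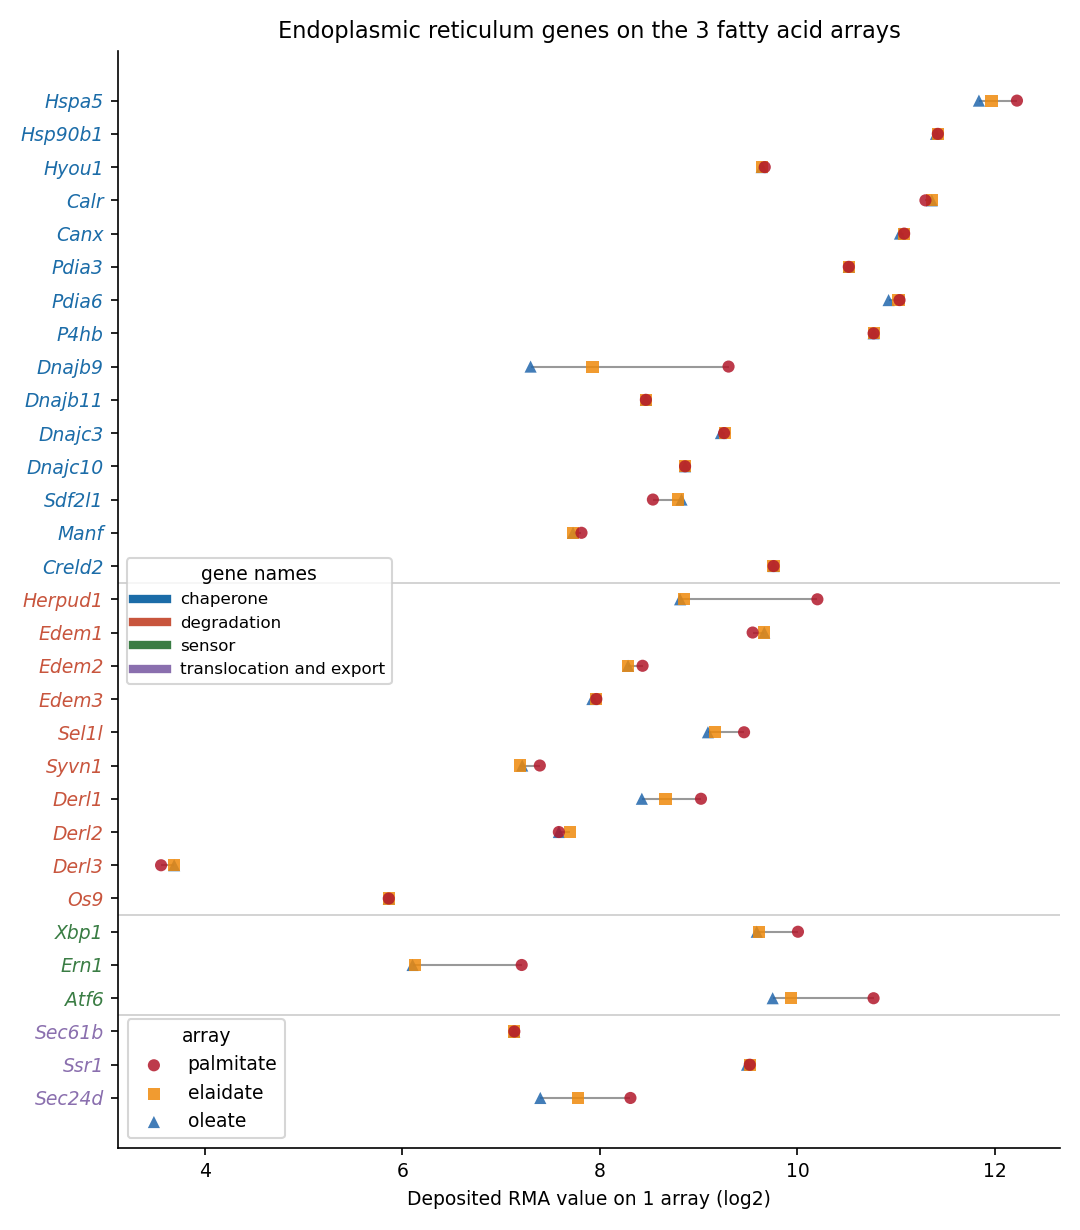
Each row is 1 gene, the x axis is the deposited log2 value, and red circles, orange squares and blue triangles are the palmitate, elaidate and oleate arrays; a grey line joins the lowest and the highest value. Dnajb9 has 9.30 on the palmitate array and 7.30 on the oleate array, while Pdia3 and P4hb have 1 value on all arrays. Positions of different genes on the x axis are not comparable, because probe sets differ in brightness.

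The chaperones proper came first. Hspa5 encodes BiP, the main ATP-driven chaperone of the compartment and the protein that holds the stress sensors inactive. Its log2 value was 12.22 on the palmitate array, 11.96 with elaidate and 11.84 with oleate, which puts palmitate 1.31-fold above oleate. Palmitate was thus highest and oleate lowest, with steps below 1.5-fold. Hsp90b1, the HSP90 of the endoplasmic reticulum, had 11.42 with palmitate and with elaidate and 11.40 with oleate. Hyou1, a nucleotide exchange factor for BiP, had 9.67 with palmitate and 9.64 with each of elaidate and oleate. Both of these genes differed by at most 0.03 between any pair of arrays.

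The lectin chaperones hold newly made glycoproteins, and the disulfide isomerases form and shuffle their disulfide bonds. Calr was slightly lower with palmitate, at 11.30, against 11.36 with both elaidate and oleate. Canx had 11.08 with palmitate and with elaidate, and 11.04 with oleate. Among the 3 isomerases measured, Pdia6 had 11.03, 11.02 and 10.92 on the palmitate, elaidate and oleate arrays. Pdia3, the partner of both lectin chaperones, held 10.52 on all of them, and P4hb, the classical protein disulfide isomerase, held 10.77. None of these 5 genes was as much as 1.1-fold apart between any pair of arrays.

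J proteins deliver clients to BiP and start its ATPase, and here 1 of the 4 stood out from its class. Dnajb9, also called ERdj4, which in mouse cells keeps IRE1 bound to BiP and also serves degradation, had a log2 value of 9.30 on the palmitate array, 7.93 with elaidate and 7.30 with oleate. The 3 arrays were therefore ordered palmitate, elaidate, oleate, with palmitate 4.01-fold above oleate and 2.60-fold above elaidate, and elaidate 1.54-fold above oleate. It ranked 33 from the top among the 9410 genes for palmitate minus oleate, and 55 for elaidate minus oleate. It was the only member past 1.5-fold between the trans and the cis isomer. None of the 4 motifs was found in its promoter stretch above or in the rest of its window. The other J proteins did not share this pattern: Dnajc3, an inhibitor of PERK, had 9.26, 9.27 and 9.23 on the palmitate, elaidate and oleate arrays. Dnajb11, a BiP cochaperone that binds nascent clients, had 8.47 on all arrays, and Dnajc10, a reductase that prepares clients for degradation, had 8.86 on all.

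The small folding factors are often induced together with BiP when folding is disturbed. Sdf2l1, a partner of J proteins, was the lowest member for palmitate minus oleate, with 8.54 on the palmitate array, 8.79 with elaidate and 8.83 with oleate, a log2 difference of -0.29. Manf, a secreted factor retained in the endoplasmic reticulum by calcium, had 7.81 with palmitate and 7.73 with each of the others. Creld2 had 9.76 on all 3 arrays. Over the 15 chaperones, 8 were higher, 5 equal and 2 lower with palmitate than with oleate, and the median difference was 0.02. Of the genes past the filter 30.9% were higher, 32.3% equal and 36.8% lower. Centring the arrays on their medians moved every difference by -0.04, so equal genes became lower, and 5 chaperones were then higher and 10 lower. With cyclic loess, another rescaling, 13 were higher and 2 lower. No share of all genes was counted for the rescaled values, and the count of small differences has no firm direction.

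Degradation factors were next. Herpud1 encodes a membrane scaffold of the ubiquitin ligase complex that removes misfolded proteins, and is degraded quickly itself. It had a log2 value of 10.20 on the palmitate array, against 8.85 with elaidate and 8.81 with oleate. Palmitate was 2.62-fold above oleate and 2.56-fold above elaidate, while elaidate and oleate were 0.04 apart; for Dnajb9 the isomers were 0.63 apart. Its promoter held an ERSE-II match 52 to 42 bases before the start and a C/EBP-ATF core match 112 to 105 bases before it.

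The ligase itself and its partners differed less. Syvn1, the ubiquitin ligase HRD1, had 7.39 on the palmitate array, 7.19 with elaidate and 7.21 with oleate. Sel1l, the adaptor that holds the ligase in place, had 9.46, 9.17 and 9.09 in the same order, so palmitate was 1.29-fold above oleate. Both were highest with palmitate, by less than 1.5-fold. Derl1, a derlin, which helps to move clients across the membrane, had 9.02 with palmitate, 8.66 with elaidate and 8.42 with oleate. Its 1.51-fold excess of palmitate over oleate lay just past the 1.5-fold limit, at a log2 difference of 0.60, and was 0.56 when the arrays were centred on their medians.

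Its paralog Derl2 was highest with elaidate, at 7.70, against 7.59 with both palmitate and oleate. Derl3, the derlin seen mainly in secretory tissues, was below the filter, with 3.56 with palmitate and 3.69 with each of the others. The mannosidase-like EDEM proteins mark glycoproteins for degradation, and their genes did not share a direction. Edem2 was higher with palmitate by 0.15 and Edem3 by 0.04 relative to oleate, while Edem1, a known XBP1 target, was lower by a difference of -0.12. Os9, the lectin that reads this mark, had equal values on all arrays in each of its 2 probe sets. Over the 10 degradation factors, 6 were higher, 2 equal and 2 lower with palmitate than with oleate. Shares among the genes past the filter were 30.9%, 32.3% and 36.8%. With arrays centred 6 degradation factors were higher and 4 lower, and with cyclic loess 8 were higher and 2 lower. The shares are for the deposited values, and none was counted for the rescaled ones. As for the chaperones, the count of small differences has no firm direction.

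Set against each other, the chaperone and degradation genes had medians that were close. For palmitate minus oleate the chaperone median was 0.018 and the degradation median 0.094, a gap of -0.075. The gap was -0.074 for palmitate minus elaidate, from medians of 0 and 0.074, and -0.019 for elaidate minus oleate, from medians of 0 and 0.019. The degradation median was the higher in each, by less than 0.1 on the log2 scale. For palmitate minus oleate the degradation factors stayed the higher in every setting tried, though the size of the gap varied. For palmitate minus elaidate some settings gave a gap of 0, and for elaidate minus oleate means reversed the order. With Dnajc10 counted as a degradation factor the gap was -0.015 with palmitate set against oleate and 0 when set against elaidate, and means gave 0.013 for elaidate minus oleate. Without Derl3, which was below the filter, the gap was wider, at -0.129 with palmitate against oleate and -0.147 against elaidate. By count, 1 of 15 chaperones and 2 of 10 degradation factors were at least 1.5-fold higher with palmitate than with oleate, or 6.67% and 20%, beside 4.57% of the genes past the filter. The 1 chaperone was Dnajb9, which also serves degradation and was kept among the chaperones in every setting. Derl1, 1 of the 2 degradation factors, was under the limit when arrays were centred. With palmitate against elaidate it was 1 of each, beside 3.18%. Counts this small do not set the groups apart from each other or from the other genes. In both groups the spread within the group was wider than the gap between them: chaperones ran from -0.29 to 2.00 and degradation factors from -0.13 to 1.39 for palmitate minus oleate. The mean of the chaperones was 0.16 and that of the degradation factors 0.25, both above their medians, as 1 gene in each stood far above the rest.

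**Figure D2:**
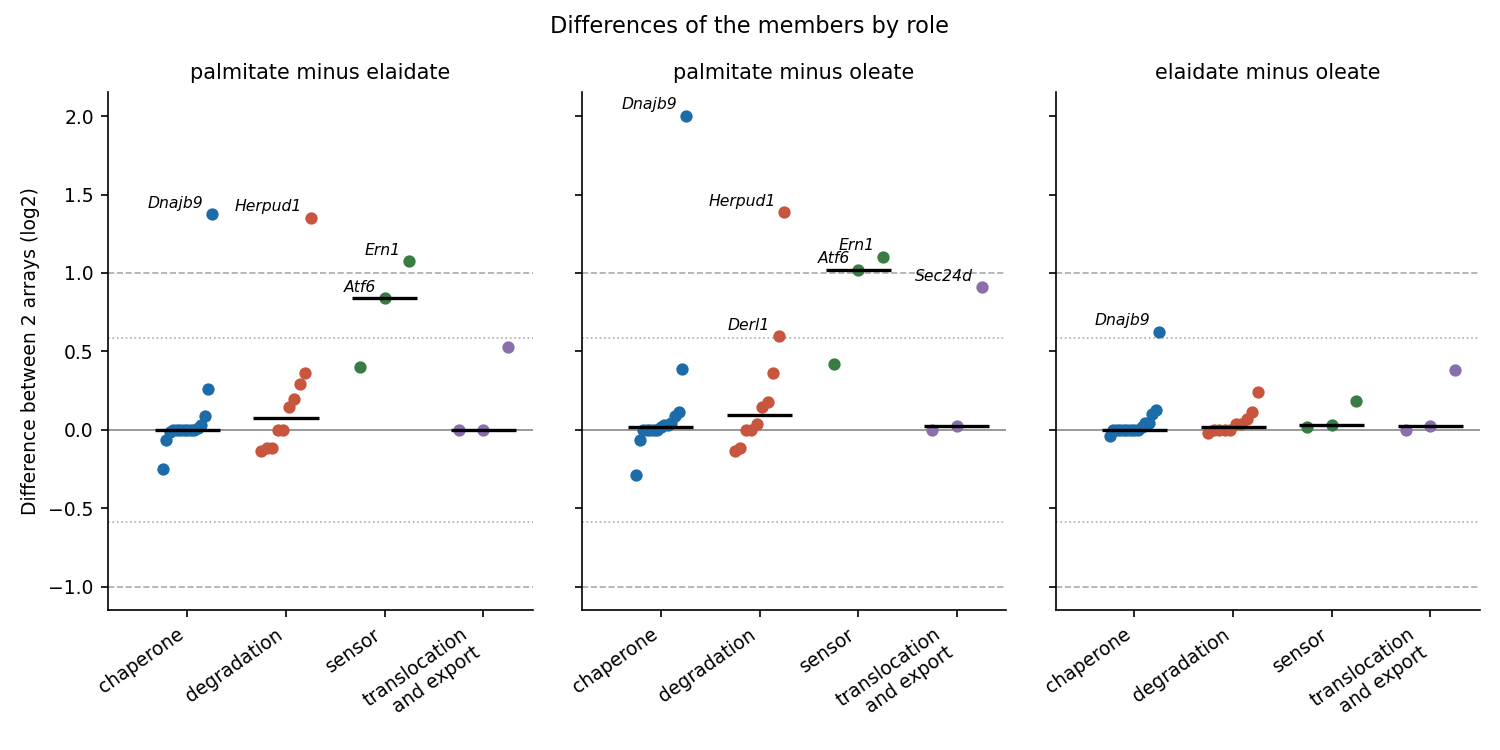
Log2 differences between pairs of arrays are plotted for the 31 genes by role; black bars are medians, dashed lines mark 2-fold and dotted lines 1.5-fold, and genes past 1.5-fold are named. For palmitate minus oleate most chaperones lie near 0, with Dnajb9 at 2.00, Hspa5 at 0.38 and Sdf2l1 at -0.29 furthest from it. The sensors lie at 0.42, 1.02 and 1.10.

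The sensors and their transcription factor were the group with the highest median, 1.02 for palmitate minus oleate over 3 genes. Ern1 had a log2 value of 7.21 on the palmitate array, 6.13 with elaidate and 6.10 with oleate. Palmitate was thus 2.15-fold above oleate and 2.11-fold above elaidate, while the isomers were 0.03 apart. None of the 4 motifs lay in its promoter window. Atf6 had 10.77 on the palmitate array, 9.93 with elaidate and 9.75 with oleate, and the 2.03-fold excess of palmitate over oleate became a log2 difference of 0.98, just under 2-fold, when arrays were centred on their medians. Xbp1 had 10.00, 9.61 and 9.59 on the palmitate, elaidate and oleate arrays, which puts palmitate 1.34-fold above oleate. The array gives 1 value for the gene, so spliced and unspliced Xbp1 messages were not told apart, and no value here measures sensor activity. All 3 genes were highest with palmitate and lowest with oleate, though elaidate and oleate were only 0.03 apart for Ern1 and 0.02 for Xbp1.

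Translocation and export genes were mostly flat. Sec61b, a subunit of the translocation channel, had equal values across the arrays in each of its 3 probe sets. Ssr1, a subunit of the translocon-associated complex, had 9.52 with palmitate and with elaidate and 9.49 with oleate. Sec24d, which selects cargo for the COPII vesicles that leave the endoplasmic reticulum, differed from both. It had 8.31 on the palmitate array, 7.78 with elaidate and 7.40 with oleate, so palmitate was 1.88-fold above oleate and elaidate 1.30-fold above oleate. A second probe set, annotated to Sec24d together with another gene, was left out. The UPRE core in its promoter lay 26 to 19 bases before the start.

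The cis and trans isomers can be read directly against each other, since dose and time were the same. Of the 31 members, 17 were higher with elaidate than with oleate, 12 were equal and 2 were lower, Sdf2l1 at -0.04 and Syvn1 at -0.02. Of the genes past the filter 31.5% were higher, 44.1% equal and 24.3% lower. Centring the arrays on their medians moved every difference by -0.01 and made it 16 members higher and 15 lower, so the count of small differences has no firm direction. Dnajb9 at 0.63 and Sec24d at 0.38 differed most, followed by Derl1 at 0.24, Atf6 at 0.18, Hspa5 at 0.13, Derl2 at 0.12 and Pdia6 at 0.10. All others were within 0.1 of 0, Herpud1, Ern1 and Xbp1 among them. With 1 array for each isomer no interval of any of these differences can be given, and small ones do not show that the isomers act alike.

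Exactly equal values were common and bear on how the flat genes are read. Of the 31 members, 7 had the same value on all 3 arrays, within 1e-06: Pdia3, P4hb, Dnajb11, Dnajc10, Creld2, Os9 and Sec61b. Among the 9410 genes past the filter 27.5% did. Summarising the probes of only 3 arrays by medians can return the same value several times, so an equal value is not a measurement of no difference. The 2 probe sets of Dnajc3 had the same values as each other on every array and add no second measurement.

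**Figure D3:**
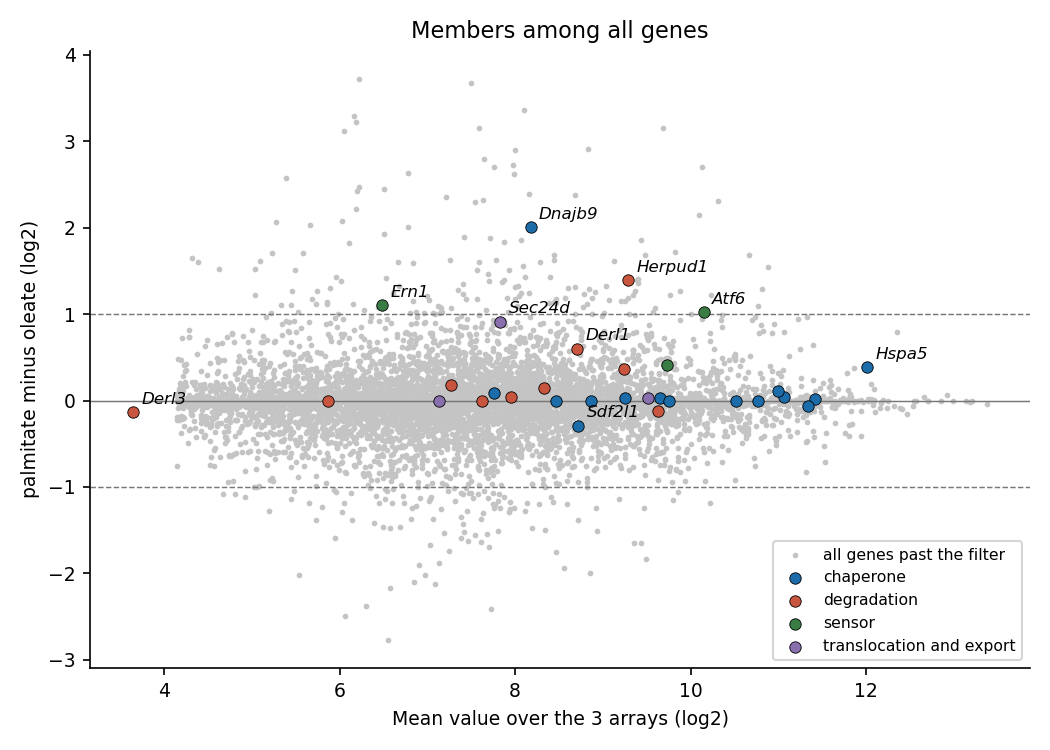
The mean log2 value over the 3 arrays is plotted against palmitate minus oleate for the 9410 genes past the filter in grey and the 31 members in colour, with dashed lines at 2-fold. Dnajb9 at 2.00 and Herpud1 at 1.39 lie among the upper grey points, while Hspa5 at 0.38 lies far to the right, near the bright end of the scale.

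An ERSE match was found in the promoters of 9 of the 27 members, against 0.119% of 32851 promoters in the table: 7 chaperones (Hspa5, Hsp90b1, Calr, Canx, Pdia6, Dnajc3 and Creld2) and 2 degradation factors (Derl3 and Syvn1). The ERSE was first described in promoters of such chaperone genes, so this share is background and not a result of the arrays. The matched elements, each written 5′ to 3′ in the direction of the motif with its 10 fixed letters in capitals, show how the spacer letters differ between these promoters, the capitals being fixed by the search; Hsp90b1 has an element on each strand.
Hspa5: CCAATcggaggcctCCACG
Calr: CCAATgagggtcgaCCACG
Derl3: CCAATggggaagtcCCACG
Hsp90b1 (farther match): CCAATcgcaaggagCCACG
Hsp90b1 (nearer match): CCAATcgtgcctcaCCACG
Canx: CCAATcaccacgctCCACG
Pdia6: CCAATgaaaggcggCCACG
Dnajc3: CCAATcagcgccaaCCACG
Creld2: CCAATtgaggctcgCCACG
Syvn1: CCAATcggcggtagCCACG

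None of the 9 members with an ERSE match was 1.5-fold apart between palmitate and oleate; of the genes past the filter 4.57% were as much higher and 4.73% as much lower, so a count of 0 among 9 genes is near the background. Derl3 among them was below the filter. Their differences ran from -0.13 for Derl3 to 0.38 for Hspa5, with a median of 0.03. The 18 members with a promoter and no ERSE match ran from -0.29 to 2.00, also with a median near 0, at 0.01, and 4 of them, Dnajb9, Herpud1, Ern1 and Sec24d, were at least 1.5-fold higher with palmitate. Atf6 and Derl1, also at least 1.5-fold higher, had no promoter to search. An ERSE-II match was in 2 members, Herpud1 and Dnajb11, and in 0.0365% of all promoters; Herpud1 differed by 1.39 and Dnajb11 was equal. The UPRE core was in 1 member, Sec24d, and in 0.676% of all promoters, and the C/EBP-ATF core was in 1, Herpud1, and in 3.97%. In 15 members with a promoter none of the 4 was found, and these include Dnajb9 and Ern1. A match is a description of letters, and its absence from a 300-base window says nothing of the factor.

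**Figure D4:**
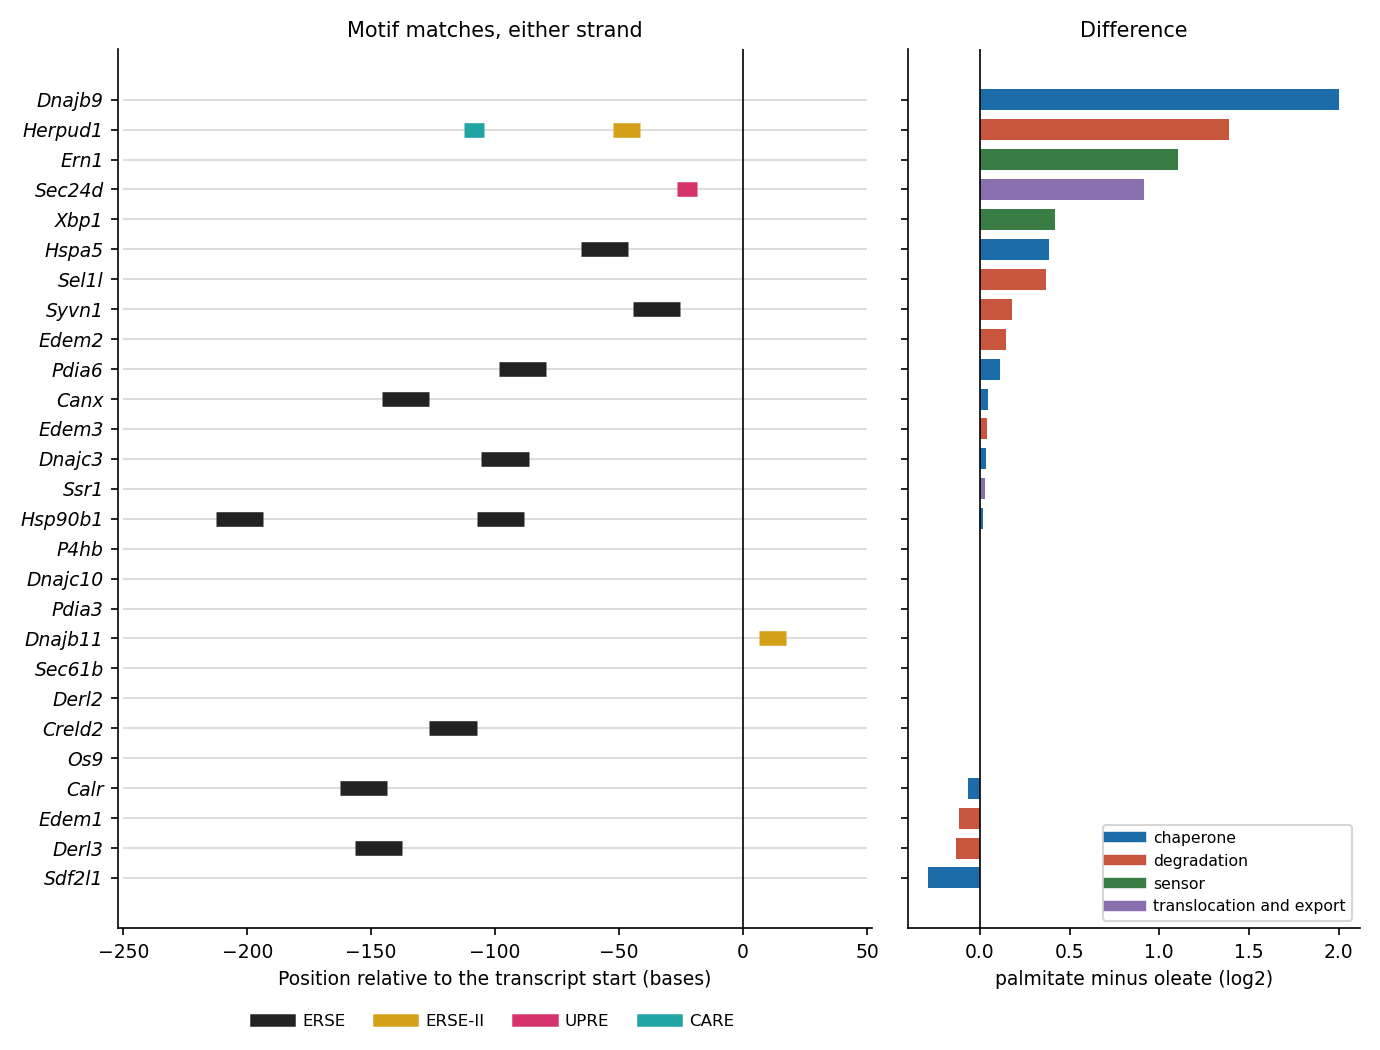
Left, matches to the 4 motifs on either strand of the promoters of 27 members, by distance in bases from the transcript start; right, the log2 difference of palmitate minus oleate for the same genes, ordered from highest to lowest. Of the 4 longest bars, Herpud1 and Sec24d have a match and Dnajb9 and Ern1 have none, and black ERSE marks sit beside bars of 0.38 or less.

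A wider list of the pathway also held few genes that stood apart. Of 79 further genes, 73 were measured, and 4 were at least 1.5-fold higher with palmitate than with oleate, 5.48% against the background of 4.57%, with none lower; their median was 0. Ero1a, the oxidase that recharges the disulfide isomerases, had a log2 value of 10.07 on the palmitate array, 9.09 with elaidate and 8.85 with oleate, and was the only 1 of the 18 folding genes past 1.5-fold. Among 19 degradation genes it was Selenos, a selenoprotein that links the retrotranslocation channel to the ATPase VCP, with 8.70, 8.09 and 8.00. Vcp itself had 10.04 on each array.

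Of the 6 further sensors and transcription factors measured, Atf4 had 9.95, 9.07 and 8.34 on the palmitate, elaidate and oleate arrays, and Creb3l2, a transcription factor related to ATF6 and cut in the same manner, had 6.29, 5.85 and 5.55. Atf4 was also 0.73 higher with elaidate than with oleate. Eif2ak3 had 7.62 on each array and Atf6b, the paralog of Atf6, was within 0.04. Neither the 19 translocation and glycosylation genes nor the 11 export genes had a member past 1.5-fold. The furthest from 0 for palmitate minus oleate were Spcs2, of the signal peptidase, at 0.40 and Tram1, a translocation factor, at -0.37 in the first of these lists. In the export list they were Mcfd2, a cargo receptor subunit, at 0.56 and Sec23b, the partner of SEC24 proteins in the COPII coat, at 0.51. Sec24a, Sec24b and Sec24c, paralogs of Sec24d, were at 0.12, -0.01 and 0 in the same comparison, where Sec24d stood at 0.91.

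**Figure D5:**
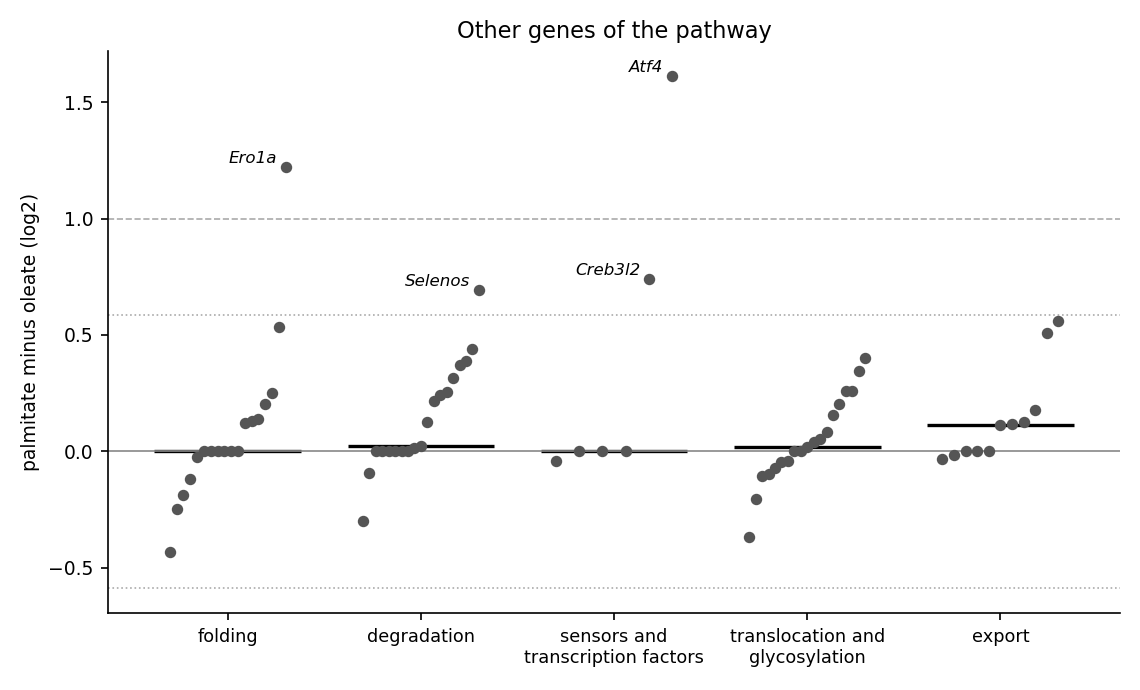
Palmitate minus oleate on the log2 scale for 73 further pathway genes in 5 lists, with black bars for medians, a dashed line at 2-fold and dotted lines at 1.5-fold. Ero1a at 1.22, Selenos at 0.69, Atf4 at 1.61 and Creb3l2 at 0.74 are the genes past 1.5-fold, and every list median lies between 0 and 0.11.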

How the data were processed

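Per the labels' protocols, total RNA was labelled with an Affymetrix whole-transcript kit; each fatty acid has 1 array, grouped by its label. The authors deposited 1 log2 value per probe set and array, which the submitters' processing notes credit to RMA with no version. RMA corrects background, equalises array distributions and summarises probes by median polish. Array medians over 35556 probe sets were 3.61 for palmitate, 3.58 for elaidate and 3.57 for oleate. Arrays have no depth, and their small number limits how precise a difference is.

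The platform annotation, which can be old, named the probe sets: 21218 had 1 gene symbol, 1881 several and 12457 none, and 21185 matched mouse RefSeq by gene identifier. Only probe sets with 1 symbol were used, averaged per gene. The filter kept 9410 of 18820 genes, those with a mean at or above 4.14. Differences were taken between arrays with no test, and genes at least 2-fold or 1.5-fold apart were counted. All measured members were named; of the other pathway genes, those at least 1.5-fold apart in any comparison, or in a list with none, the 2 furthest from 0 for palmitate minus oleate. A few more (Vcp, Eif2ak3, Atf6b and the Sec24 paralogs) were named after their values were seen. The members and lists were chosen with earlier results of these data known. A planned description of protein ends was not made. Python 3.11.15, pandas 2.3.3, numpy 2.4.6, R 4.3.3 and limma 3.58.1 (cyclic loess, span 0.7, 3 iterations) were used, and counting was tested on simulated data.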

Additional observations from a re-analysis of the deposited data

How the results depend on the processing

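No paired analysis was possible because each fatty acid has 1 array, and no array could be left out. Of the 6 members at least 1.5-fold apart between palmitate and oleate, all 6 stayed so with cyclic loess or with the brightest probe set of each gene. Centring arrays on their medians left 5, without Derl1, and 3 of the 4 past 2-fold, without Atf6; it moved all palmitate minus oleate differences by -0.04. Centring also turned the chaperone median for palmitate minus oleate to -0.021, against 0.018 as deposited. With means in place of medians, the chaperones stood at 0.16 and the degradation factors at 0.25 for palmitate minus oleate, the degradation factors at 0.20 for palmitate minus elaidate, and chaperones minus degradation turned to 0.013 for elaidate minus oleate. Leaving out members equal on all arrays, added after seeing the data, moved the chaperone and degradation medians and their gaps by less than 0.1, and the chaperone minus degradation gap stood at -0.11 for palmitate minus oleate and at -0.14 for palmitate minus elaidate. Without the member furthest from 0 in each group those gaps were -0.031 and 0, and with Dnajc10 among the degradation factors -0.015 and 0. With only the members past the filter they were -0.129 and -0.147.

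Counts of members past a limit were 1 at 3-fold for palmitate minus oleate, 0 at 3-fold for palmitate minus elaidate and 1 at 1.5-fold for elaidate minus oleate, all higher. Over the 9410 genes past the filter, 1.5-fold gave 430 higher and 445 lower for palmitate minus oleate, 299 and 417 against elaidate, and 68 and 6 for elaidate minus oleate. The 3-fold limit gave 57 and 24, 33 and 15, and 0 higher in the same order. A filter at the 75th percentile gave 95 higher and 62 lower genes at 2-fold when palmitate was set against oleate, and 53 and 43 against elaidate.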
